A study of Rattus norvegicus with 6 samples.

Results

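The urea cycle was examined through 8 genes that carry nitrogen from ammonia to urea in the liver: Nags, Cps1, Otc, Ass1, Asl, Arg1 and the mitochondrial carriers Slc25a15 and Slc25a13. All array probes whose accession matched a current RefSeq rat symbol of these genes were taken. This gave 9 probes for 7 of the 8 genes, out of 28112 features (genes or unnamed sequences) tested in all. No probe matched Slc25a13, the aspartate-glutamate carrier citrin, and it was not analysed here. Asl and Slc25a15 had 2 probes each, and the brighter one stands for the gene.

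The samples were livers of male Sprague-Dawley (Crl:CD(SD)) rats, bought at an age of 5 weeks, with 1 single-colour Agilent array per animal. The control animals (n = 3) received corn oil, the vehicle, and the treated animals (n = 3) received 2,2-bis(bromomethyl)-1,3-propanediol (BBMP) at 1000 mg/kg/day; this small bromine-bearing diol is used to make plastics less flammable. The labels give the exposure both as 28 days and as 9 weeks. Whole liver RNA was hybridised, so a change in the number of cells of a type and a change in RNA per cell cannot be told apart for any value below.

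In hepatocytes around the portal vein, the urea cycle turns toxic ammonia into urea, which the kidney excretes. Its opening steps lie in the mitochondrion: NAGS makes N-acetylglutamate, the obligate activator of CPS1, which fixes ammonia into carbamoyl phosphate, and OTC joins that to ornithine to give citrulline. In the cytosol ASS1 and ASL add the nitrogen of aspartate and release arginine, and ARG1 splits arginine into urea and ornithine, which the carrier ORC1 (Slc25a15) returns to the mitochondrion in exchange for citrulline. Diet protein, glucocorticoids and glucagon are known to set the expression of these genes together.

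All 9 probes were well above background and unsaturated on all 6 arrays. Of all 61573 probes, between 60.1% and 64.4% per array were bright enough to count as well above background. The main component of variation, with 32.9% of the variance, placed corn oil 2 at -50.84, apart from the other corn oil livers at -9.60 and -14.82 and the treated livers at 19.09 to 28.69. The corn oil arrays shared 1 slide and 1 scan day and the treated arrays shared others. Neither the slide nor the scan day can be told apart from the treatment. The number of arrays limits the precision.

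Each of the 7 measured genes had a higher mean signal after BBMP than after corn oil, by 0.09 to 0.49 on the log2 scale, and none passed the test. Cps1 and Arg1, which take in ammonia and release urea, were the genes in which every treated liver lay above every corn oil liver, which held for 8.25% of all features. The median difference of the 7 genes was 0.23, against -0.01 over all features, and 14.8% of all features had a difference at least as high as that median. Over all features, 2 (0.00711%) passed limma's Benjamini-Hochberg adjusted p of 0.05, both lower after BBMP, and 47.5% had a higher mean. Among the 7 genes 0 passed, with 2 at an unadjusted p under 0.05 and a higher mean, a call made for 4.7% of all features. These 2 were Cps1 and Arg1, and the number was 0 without corn oil 2, 0 without BBMP 2 and 0 with the replicate number as a block. The direction of the group rested partly on corn oil 2: without it the median difference was 0.09, with 5 of 7 genes higher, and without BBMP 2 it was 0.20, also with 5 higher.

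**Figure D1:**
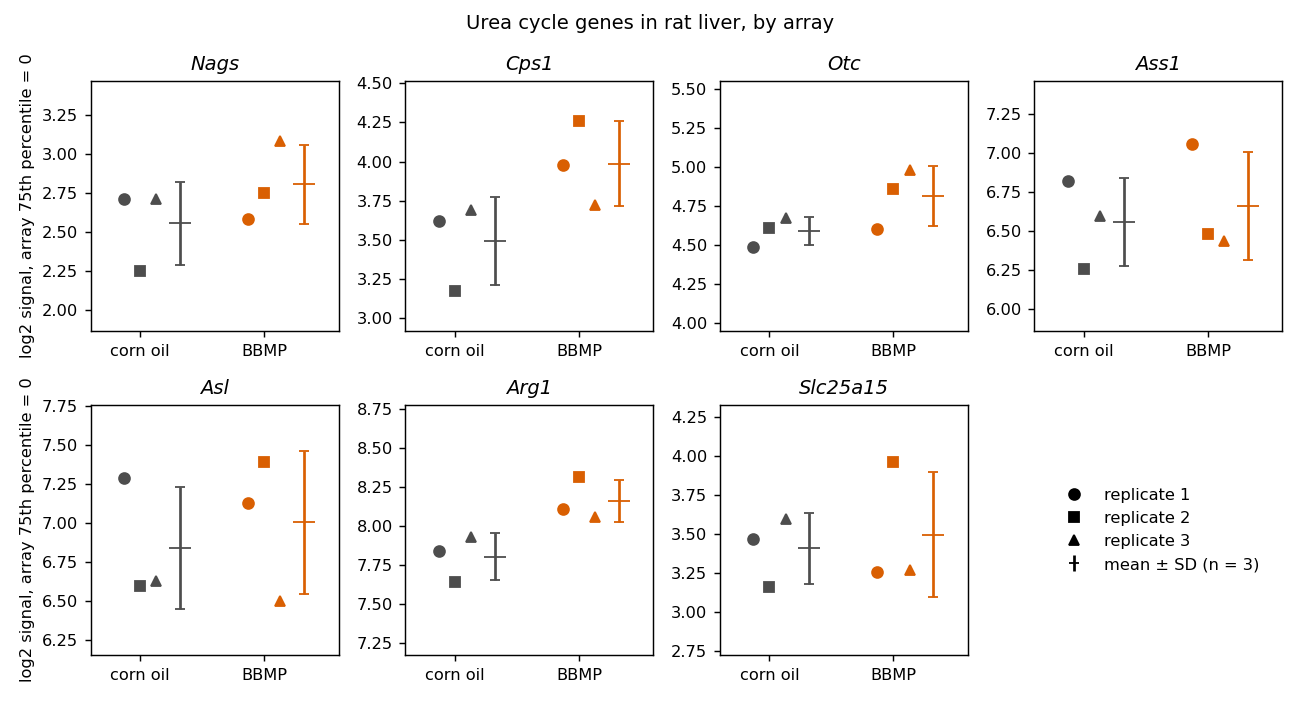
Log2 signal of the 7 measured urea cycle genes on each array (array 75th percentile = 0), corn oil in grey and BBMP in orange, with the mean ± SD of 3 animals beside the points. Every panel spans the same height; the groups part without overlap for Cps1 and Arg1 and overlap for Nags, Otc, Ass1, Asl and Slc25a15.

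Cps1 encodes carbamoyl phosphate synthetase 1, the entry step of the cycle and among the most abundant proteins of liver mitochondria. Its log2 signal was 3.62, 3.17 and 3.69 in corn oil 1, 2 and 3, and 3.98, 4.26 and 3.72 in BBMP 1, 2 and 3. The lowest treated liver, BBMP 3, lay just above the highest corn oil liver, and BBMP 2 and corn oil 2 formed the extremes. In scanner units the same probe read 4109 to 6756 in the corn oil and 7522 to 9289 in the treated livers. The difference was 0.49 ± 0.20 (SE; limma 95% interval 0.02 to 0.96, adjusted p = 0.455), or 1.41-fold. Without corn oil 2 it was 0.33 and without BBMP 2 it was 0.36.

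Nags encodes N-acetylglutamate synthase, the source of the CPS1 activator. Corn oil livers read 2.71, 2.25 and 2.71 and treated livers 2.58, 2.75 and 3.08 on the log2 scale. BBMP 2 and BBMP 3 lay above all corn oil livers, while BBMP 1 lay below 2 of them, so the groups overlapped. The difference was 0.25 ± 0.19 (SE; 95% interval -0.20 to 0.70; limma adjusted p = 0.653), and it was 0.09 without corn oil 2.

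Otc encodes ornithine transcarbamylase, the X-linked enzyme that makes citrulline. Its signal varied least within the corn oil group among the 7 genes, at 4.49, 4.61 and 4.67, and stood at 4.60, 4.86 and 4.98 in the treated livers. BBMP 1 fell inside the corn oil range and the other treated livers above it. The means were 4.59 ± 0.09 (SD, n = 3) and 4.82 ± 0.20 (SD, n = 3), a difference of 0.23 (limma adjusted p = 0.558; 95% interval -0.09 to 0.54). Otc was the measured gene whose lowest value was in corn oil 1. It was also the one whose difference was not smaller without corn oil 2, at 0.24. The difference was 0.14 without BBMP 3 and 0.14 with normexp background correction.

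The sequences just upstream of these mitochondrial steps are shown because Cps1, its activator gene and Otc head the pathway and all had higher treated means. RefSeq's promoter table (build GRCr8) held 7 of the 8 genes, and Arg1 was not among them. Each line gives the 250 bases before the gene's start, 5′ to 3′ on the gene's strand, with matches to the motifs searched in capitals. The Cps1 stretch is chr9:76063613-76063862 (plus strand), that of Nags chr10:87598266-87598515 (plus strand) and that of Otc chrX:15202474-15202723 (minus strand).
Cps1: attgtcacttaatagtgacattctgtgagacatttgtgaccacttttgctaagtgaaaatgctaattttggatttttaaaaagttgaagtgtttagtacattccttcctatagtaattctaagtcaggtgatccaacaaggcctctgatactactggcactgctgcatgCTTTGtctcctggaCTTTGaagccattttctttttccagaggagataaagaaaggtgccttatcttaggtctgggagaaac
Nags: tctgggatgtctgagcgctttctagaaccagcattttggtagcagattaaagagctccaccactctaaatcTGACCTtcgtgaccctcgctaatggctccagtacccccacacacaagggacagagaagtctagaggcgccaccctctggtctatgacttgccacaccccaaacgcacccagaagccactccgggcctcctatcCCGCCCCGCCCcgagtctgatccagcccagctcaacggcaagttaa
Otc: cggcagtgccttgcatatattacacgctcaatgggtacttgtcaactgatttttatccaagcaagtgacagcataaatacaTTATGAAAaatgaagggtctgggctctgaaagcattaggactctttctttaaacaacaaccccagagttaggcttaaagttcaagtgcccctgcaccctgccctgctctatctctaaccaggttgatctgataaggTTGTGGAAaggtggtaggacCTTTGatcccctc

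Of these stretches, that of Cps1 was AT-rich, with 38.0% G and C against a median of 51.2% over 33469 rat promoters, while Otc had 44.4% and Nags 56.4%. Windows of 300 bases (250 before and 50 after the start that RefSeq lists for the promoter) were searched on both strands for 8 motifs. For Ass1, Slc25a15, Asl and Slc25a13 that start lies inside the gene. The stretches before it were chr3:35149480-35149729 for Ass1 and chr16:76336620-76336869 for Slc25a15, while these genes begin at 35144765 and 76334037. Matches of Ass1 and Slc25a15 below therefore lie within the gene's span and not before it. The stretch of Asl, chr12:32295658-32295907, runs past the gene's beginning at 32295779. That of Slc25a13, chr4:35328361-35328610 on the minus strand, likewise reaches into the gene, whose span ends at 35328403. CAAAG, the core of sites of the hepatocyte factor HNF4, matched 2 times before Cps1, 81 and 67 bases ahead of its start, and 1 time before Otc at 13 bases. It was found in 2 of the 7 promoters and in 53.8% of all promoters. TTNNGNAA, a C/EBP pattern, matched Otc 2 times and Slc25a15 2 times, and 41.3% of all promoters held it. AGGTCA, the core bound by many nuclear receptors, matched Nags and 16.2% of all promoters, and TGACG, the core of the cyclic AMP response element, matched Nags (after its start) and Slc25a13, and 21.2% of all. The GC box GGGCGG matched Asl, Slc25a13 and Nags (33.1% of all), with overlapping matches in Nags. CCAAT matched Slc25a13 and Slc25a15 (37.5% of all), and TATAAA matched Ass1 (14.2% of all). A spaced palindrome for the glucocorticoid receptor matched 0 of the 7 windows and 0.439% of all. A match describes letters in a window and does not show a bound site.

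Ass1, argininosuccinate synthetase, brings the nitrogen of aspartate into the cycle. Its log2 signals were 6.82, 6.26 and 6.60 after corn oil and 7.06, 6.48 and 6.44 after BBMP. Only BBMP 1 lay above the corn oil range, and the other treated livers lay inside it. The difference was 0.10 ± 0.22 (SE; 95% interval -0.43 to 0.63; limma adjusted p = 0.891). It turned to -0.05 without corn oil 2 and to -0.10 without BBMP 1.

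Asl, argininosuccinate lyase, releases arginine and fumarate. The brighter probe read 7.29, 6.60 and 6.63 in corn oil livers and 7.13, 7.39 and 6.50 in treated livers, so that the highest and the lowest value of all 6 were both in treated animals. Its difference of 0.17 ± 0.29 (SE; 95% interval -0.52 to 0.86; limma adjusted p = 0.855) was smaller than the spread within either group, 0.39 and 0.46 (SD, n = 3 each). The other Asl probe read 4.84, 3.88 and 4.24 against 4.78, 5.07 and 4.32 and differed by 0.41 ± 0.29 (limma on every probe, adjusted p = 0.646). The probes tracked each other over the 6 arrays with a Pearson r of 0.92, and on both the highest treated liver was BBMP 2. Without BBMP 2 the difference of the brighter probe was -0.02, and without corn oil 2 it was 0.05.

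Arg1, arginase 1, carries out the final step that yields urea. The log2 signal was 7.84, 7.64 and 7.93 in corn oil and 8.11, 8.31 and 8.06 in treated livers. All treated livers lay above all corn oil livers, with the same animals at the ends as for Cps1. The group means were 7.80 ± 0.15 and 8.16 ± 0.14 (SD, n = 3 each), and the difference was 0.36 ± 0.12 (SE; 95% interval 0.06 to 0.65), or 1.28-fold, with a limma adjusted p of 0.424. Its spread within groups was the smallest of the 7 genes: 36.5% of all features had a smaller one. Groups that do not overlap with higher treated values were found for 8.25% of all features, and for 2 of these 7 genes. Without corn oil 2 the difference of Arg1 was 0.27.

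Slc25a15 encodes the mitochondrial ornithine carrier. Signals of the brighter probe were 3.47, 3.16 and 3.60 after corn oil and 3.26, 3.96 and 3.27 after BBMP. BBMP 2 alone exceeded the corn oil range, and the difference was 0.09 ± 0.22 (SE; 95% interval -0.45 to 0.63; limma adjusted p = 0.907). The dimmer probe, at 30 to 81 scanner units, went the other way, by -0.22 ± 0.40 (limma on every probe, adjusted p = 0.864). Its lowest value, -4.23 in BBMP 3, stood beside -2.58 in BBMP 2. The direction of this carrier therefore differed between its probes, and the brighter probe gave -0.04 without corn oil 2 and -0.14 without BBMP 2.

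**Figure D2:**
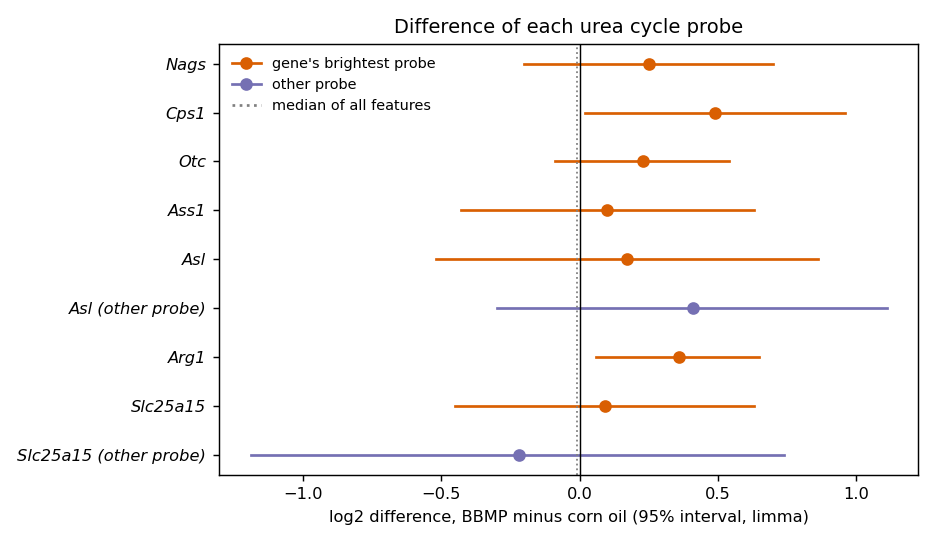
Log2 difference (BBMP minus corn oil) of each of the 9 probes with its 95% limma interval, brightest probes in orange and other probes in purple; the dotted line is the median of all features, -0.01. The intervals of Cps1 and Arg1 lie above 0, unadjusted for the other features, and those of the other 7 probes cross it.

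The genes differed in how they varied between animals. Over the 6 arrays, which share the group difference and the array scaling, Pearson r between pairs of the 7 genes ran from -0.48 (Otc and Ass1) to 0.98 (Cps1 and Arg1), with a median of 0.50 over 21 pairs and 17 above 0. Cps1 and Arg1, the entry and the exit of the cycle, thus had nearly the same profile, whereas Otc ran apart from Ass1 and Asl (-0.28). Corn oil 2 had the lowest signal for 5 of the 7 genes, and BBMP 2 the highest for 4. The mean deviation from each gene's own average was 0.02, -0.34 and -0.04 in corn oil 1, 2 and 3 and 0.09, 0.27 and 0.00 in BBMP 1, 2 and 3, so that BBMP 3 lay below corn oil 1 and the groups overlapped.

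**Figure D3:**
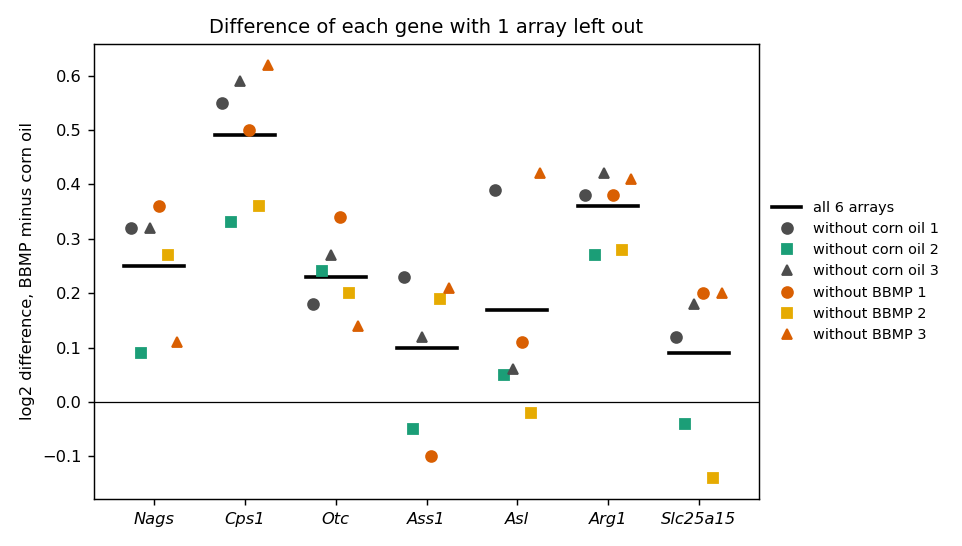
Log2 difference of each of the 7 genes with all 6 arrays (black bar) and with 1 array left out (symbols). Nags, Cps1, Otc and Arg1 stay above 0 in each case, while Ass1 (without corn oil 2 or BBMP 1), Asl (without BBMP 2) and Slc25a15 (without corn oil 2 or BBMP 2) fall below it.

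Among 10704 named genes well above background on all arrays, those whose profile over the 6 arrays was most like that of Cps1 were the scaffold gene Card10 (Pearson r 0.994), the transferrin receptor Tfrc (0.992) and the adhesion molecule Vcam1 (0.985). The mean profile of the 7 genes was most like those of the checkpoint clamp loader Rad17 (0.991), the flavin monooxygenase Fmo5 (0.990) and the ribosomal protein gene Rps7 (0.988). With 6 arrays and this many candidates, such values only describe likeness. Fmo5 differed by 0.70 ± 0.37 and Tfrc by 0.64 ± 0.29 (SE; limma adjusted p = 0.536 and 0.486). Without corn oil 2 these were 0.36 and 0.41, and without BBMP 2 both were at 0.43. With quantile normalization the Pearson r of Rps7 with the mean profile was 0.885.

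Genes around the cycle that supply or remove its nitrogen were taken from lists. Of 17 genes of ammonia and glutamine handling, 11 had a higher and 6 a lower mean after BBMP, with a median difference of 0.06. In either direction 0 passed the adjusted threshold. At a limma unadjusted p under 0.05, 2 were higher, a call made for 4.7% of all features. Gls2, the liver glutaminase that frees ammonia beside CPS1, read 6.50, 6.34 and 6.49 after corn oil and 6.90, 7.09 and 6.64 after BBMP. Its groups did not overlap, as for 8.25% of all features in that direction. It differed by 0.44 ± 0.14 (SE), with a limma adjusted p of 0.407, and by 0.58 on its other probe. The alanine transaminase Gpt differed by 0.78 ± 0.26 (adjusted p = 0.415), with corn oil 1 at 4.49 against 4.46 in BBMP 3, and its mitochondrial relative Gpt2 by 0.25 ± 0.14 (0.14 without BBMP 2). Glul, the glutamine synthetase of the innermost pericentral hepatocytes, which scavenges ammonia that the cycle has missed, differed the other way by -0.38 ± 0.19 (adjusted p = 0.506). Other probes gave 0.96 for Gpt, 0.43 for Gpt2 and -0.31 for Glul. The number of higher genes on this list was 7 without corn oil 2 and 7 without BBMP 2.

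For genes that use arginine, ornithine or citrulline outside the cycle, 18 of 20 were tested, 7 higher and 11 lower, with a median of -0.05 and 0 past the threshold (1 lower at an unadjusted p under 0.05, against 6.09% of all features). That gene was the proline dehydrogenase Prodh, at -0.39 ± 0.15 (SE; limma adjusted p = 0.451), with -0.26 to -0.40 on its other probes. The polyamine-acetylating enzyme Sat1 differed by -0.39 ± 0.18, the proline-making reductase Pycr1 by 0.43 ± 0.19 and the ornithine decarboxylase Odc1 by 0.18 ± 0.13. Other probes gave -0.10 and 0.28 for Pycr1, -0.33 for Sat1 and 0.26 for Odc1. Odc1 was at 0.08 without corn oil 2, at 0.11 without BBMP 2 and at 0.27 without corn oil 1. Arg2, the mitochondrial arginase, was not well above background in all animals of either group. Without BBMP 1 the number of higher genes on this list was 12.

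Transporters of arginine, ornithine, aspartate and urea were tested for 10 of 15 genes, 6 higher and 4 lower, with a median of 0.05 and 0 past the threshold, also at an unadjusted p under 0.05. Aqp9, the channel of the hepatocyte membrane for glycerol and urea, differed by -0.22 ± 0.14 (SE; limma adjusted p = 0.589), and the mitochondrial basic amino acid carrier Slc25a29 by 0.43 ± 0.28. The urea transporter Slc14a1 differed by 0.21 ± 0.16 and the amino acid transporter Slc7a6 by -0.16 ± 0.14. Of these 4 genes, 0 had groups without overlap. Single arrays weighed on all of them: Slc25a29 was at 0.12 without BBMP 2 and 0.66 without BBMP 3, and Slc14a1 at 0.36 and 0.08. Aqp9 was at -0.12 without corn oil 1 or without BBMP 3, and Slc7a6 at -0.28 without corn oil 1 and -0.08 without corn oil 2. With normexp background correction Aqp9 was at -0.08 and Slc14a1 at 0.07.

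Among 21 tested regulators and co-regulated genes, 7 were higher and 14 lower, with a median of -0.10 and 0 past the threshold. At a limma unadjusted p under 0.05, 1 was lower, a call made for 6.09% of all features. In 4 of the 21 every treated liver lay below every corn oil liver, as in 9.58% of all features. The forkhead factor Foxa2 read 2.62, 3.94 and 4.01 after corn oil and 2.42, 1.25 and 2.52 after BBMP, a difference of -1.46 ± 0.49 (SE; limma adjusted p = 0.417). All treated livers lay below all corn oil livers, with corn oil 1 just above BBMP 3. Nfyb, a subunit of the CCAAT-binding factor, differed by -0.21 ± 0.10, the cyclic AMP coactivator Crtc2 by -0.20 ± 0.11 and the gluconeogenic enzyme G6pc1 by -0.28 ± 0.16. Other probes gave -0.41 and -0.01 for Nfyb, -0.09 for Crtc2 and -0.33 for G6pc1. Crtc2 was at -0.05 with normexp and -0.13 without corn oil 1, and G6pc1 at -0.16 with normexp and -0.12 without BBMP 1.

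The cycle is densest around the portal vein, so genes of both ends of the lobule were read beside it. Of 9 tested periportal genes, 6 were higher and 3 lower (median 0.10), and of 15 pericentral genes, 4 were higher and 11 lower (median -0.19), with 0 past the threshold in either list and the difference between the lists not tested. These lists share genes with those above, so their counts are not separate. Glul, Rhbg, Slc1a2 and Gls2 are also on the ammonia list, Oat on the arginine list and Pck1 among the regulators. In the periportal list, Gls2 is given above. Sds, the serine dehydratase, differed by 1.21 ± 0.61 (SE; limma adjusted p = 0.521), a mean drawn up by BBMP 2 at 4.09 against 2.37 and 1.65 in the other treated livers, and it was 0.51 without BBMP 2. The other probe of Sds gave 0.75 ± 0.37. Hsd17b13, a lipid droplet protein, differed by 0.22 ± 0.12 (0.13 without BBMP 3) and the growth factor Igf1 by -0.28 ± 0.12. In the pericentral list, the calcium-binding protein gene Rgn differed by -0.86 ± 0.21 (adjusted p = 0.385), the cytochrome P450 Cyp1a2 by -1.06 ± 0.30 (adjusted p = 0.401) and Lect2 by -0.25 ± 0.11. The other probe of Cyp1a2 gave -0.75. For Rgn, Cyp1a2 and Lect2, and also for the periportal Igf1, every treated liver lay below every corn oil liver, which held for 9.58% of all features. Differences ran from -1.06 to 0.74 over the pericentral list and from -0.30 to 1.21 over the periportal list.

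**Figure D4:**
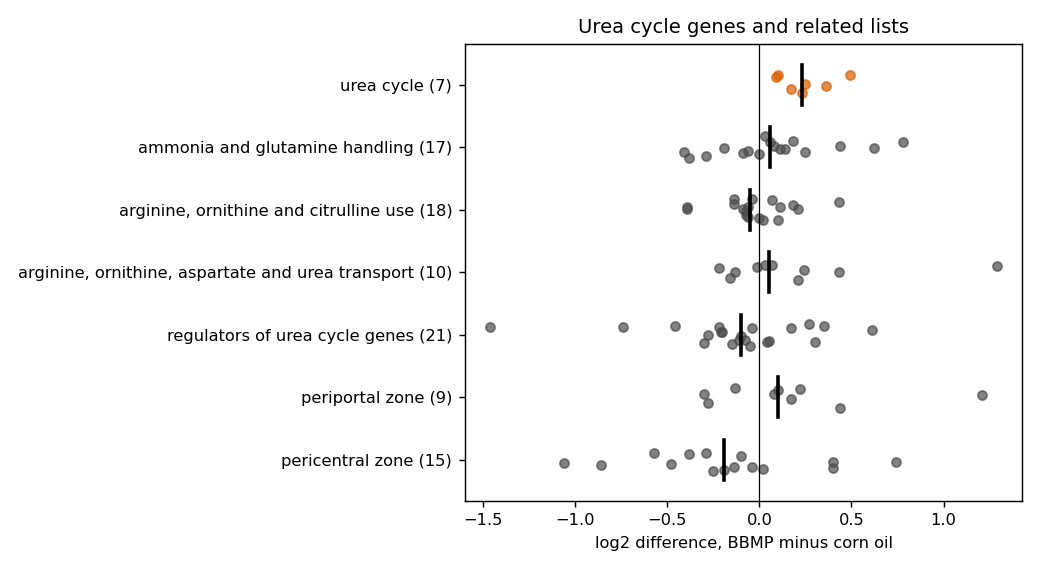
Log2 difference of each tested gene of the urea cycle (orange) and of 6 related lists (grey), with the number of genes in brackets and a black bar at the median. The 7 urea cycle genes lie between 0.09 and 0.49, and the other lists spread to both sides of 0.

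Markers of the cell types a liver sample can hold were read beside these results. All 10 hepatocyte markers were well above background on at least 1 array, 2 higher and 8 lower after BBMP (median -0.11). Their summed signal was 8260 to 8540 times the 75th percentile of the array in corn oil and 7310 to 8270 times in treated livers. Each sum covers all markers of a list that matched a probe, also those too dim to be tested, while the counts cover tested markers. The sums hold 7 neutrophil markers against 3 tested, 9 against 6 for T and NK cells and 6 against 5 for erythroid cells. Markers of Kupffer cells and macrophages, which can also hold arginase 1, were higher in 10 of 10 tested genes (median 0.33), with overlapping sums of 104 to 165 and 125 to 178. For the stellate and fibroblast list 8 of 10 genes were lower, with sums of 47.3 to 52.2 against 38.9 to 45.2 that did not overlap. Taken singly, 3 of these genes were lower without overlap, as were 9.58% of all features. In the same list 1 gene was higher without overlap, as were 8.25% of all features. Endothelial markers were higher in 5 of 6 (40.5 to 49.8 against 43.9 to 50.2) and erythroid markers lower in 5 of 5 (736 to 1010 against 624 to 1090). Neutrophil markers were lower in 3 of 3 tested genes, with sums of 1.79 to 3.87 against 1.22 to 2.04, with Elane, Ngp and Mmp8 not well above background on any array. B cell markers were lower in 4 of 4, with low sums of 2.18 to 2.32 against 1.61 to 2.03 that did not overlap. Taken singly, 0 of these 4 had groups without overlap. T and NK cell markers were lower in 4 of 6 (2.73 to 4.01 against 2.35 to 3.27; Klrb1b never well above background) and cholangiocyte markers in 4 of 6 (1.74 to 2.08 against 1.95 to 2.14). Over these 9 lists 0 markers passed the limma adjusted threshold, and their part in the urea cycle values was not tested.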

How the data were processed

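Liver RNA of 6 rats, 3 per group by the treatment label, was labelled with Cy3 and read on 1-colour arrays. The scanner files deposited by the authors hold linear intensity per spot; per the file headers, Feature Extraction 10.7.1.1 subtracted the background on array design 035170 (annotation build rn4), with no scaling between arrays. The authors' value table, also intensity, equals the processed signal divided by 1 constant per array (449.4 to 567.9). Its column medians were 0.0965 to 0.0998, with no centring. Each constant lay close to the 75th percentile of that array (450.1 to 570.4), so the table nearly repeats the main scaling used here. The sources used here do not give the reason for the constants.

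Control spots (1319), spike-in probes (84) and outlier spots (at most 21 per array) were left out. Accessions named 27460 probes (44.6%) through RefSeq's GRCr8 gene table. The log2 processed signal minus each array's log2 75th percentile (450.1 to 570.4 intensity units) was analysed. Testing required a probe well above background in every animal of 1 group or the other, and the brightest such probe stood for its gene. The test was that of limma 3.58.1, run in R 4.3.3 (lmFit, eBayes, two-sided, no covariate, Benjamini-Hochberg over 28112 features, threshold 0.05), and other probes in a fit of every probe. The fit was tested on simulated data. Nothing states that same-numbered animals are paired.

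The genes named are the 8 members, up to 4 genes with the smallest p of each of 6 related lists, and the 3 genes most like Cps1 and the members' mean profile, and cell type markers never well above background. Arg2, outside this rule, was named after its values were seen. A marker of the cholangiocyte list is not reported here. Members and lists were chosen with earlier results of these data known. The labels name separate animals as replicates.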

Additional observations from a re-analysis of the deposited data

How the results depend on the processing

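The 17 alternatives were other background correction, scaling, filters, probe rules, tests and the authors' value table, the replicate block, and leaving out each array. Under all of them 0 of the 7 genes passed the adjusted threshold. With the main limma setting 2 of the 7, Cps1 and Arg1, were at an unadjusted p under 0.05. The number was 0 with the replicate block, without corn oil 2 and without BBMP 2. It was 1 with the unmoderated unequal-variance test, without a filter and without corn oil 1, and 2 in the other alternatives. Without BBMP 1 these 2 were Otc and Arg1 (limma unadjusted p = 0.0371 and 0.0497), and Cps1 was at 0.0874. Of all features, 2 passed; the number was 0 with normexp, 0 with the filter on all 6 arrays, 0 with the unmoderated test, 0 with the replicate block, 1 without a filter and 0 to 4 when 1 array was left out (0 without corn oil 3, 4 without corn oil 2 or BBMP 3); the cause was not tested. The number of higher members was 5 to 7 and their median difference 0.09 to 0.34 with 1 array left out; in the other settings they were 6 to 7 and 0.22 to 0.32. With 1 array left out, the difference ranged from -0.10 to 0.23 for Ass1, from -0.02 to 0.42 for Asl, from -0.14 to 0.20 for Slc25a15 and from -0.62 to 0.20 for its dimmer probe. The mean of its probes gave -0.07 for Slc25a15; by construction this includes the dimmer probe. Nags, Cps1, Otc and Arg1 kept their direction in all 17 alternatives, with adjusted p from 0.324 to 0.946. For these genes the filters, probe rules, tests and replicate block used the same values as the main fit. Their differences could not move there, and the authors' value table is nearly the main scaling. Only the other background correction, the other scalings and leaving out an array could change a direction. Of 28 other named genes, 0 changed direction or passed; most were chosen for a small p or a likeness on these arrays, so this shows little. Deviations of animals 1, 2 and 3 from their group means correlated between the groups by 0.089, 0.016 and 0.072. Own-number pairs were each other's closest for animals 1 and 3 and not for animal 2. With 3 animals per group this cannot decide whether animals were paired. No label states a pairing, so none was assumed in the main test. Normexp was run on the median spot signal. The dimmer Slc25a15 probe lies nearest to background.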
